A study of Mus musculus with 6 samples.

Results

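The report concerns 9 genes of the Polycomb group, Cbx2, Cbx6, Cbx7, Cbx8, Ezh2, Eed, Suz12, Bmi1 and Rnf2, in epithelium microdissected from the gonadal primordium of E10.5 mouse fetuses. Every probe set whose platform gene symbol is exactly one of these names was taken, which gave 9 of 18194 named genes and 25 of the 45101 probe sets on the array. The samples were 3 pools from fetuses lacking Emx2 on both alleles (-/-, here KO) and 3 pools from wild-type fetuses (+/+, here WT), both at E10.5. Each pool combined epithelium cut by laser microdissection from 3 fetuses, and 15 ng of its RNA went through 2 rounds of amplification before hybridisation to 1 array. How the mutation removes Emx2, the strain and the sex of the fetuses are not given in the sources used here, and litters are not named either, so p-values measure the spread between pools.

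Polycomb proteins keep developmental genes silent through 2 kinds of complex. PRC2 places trimethyl marks on histone H3: Ezh2 is its methyltransferase, Eed reads the mark that Ezh2 makes, and Suz12 holds the complex together. PRC1 adds ubiquitin to histone H2A through the ligase Rnf2 (also called Ring1b), which pairs with a ring finger partner such as Bmi1, and in its canonical form it carries a chromodomain protein (such as Cbx2, Cbx6, Cbx7 or Cbx8) that binds the mark left by PRC2. Cbx2, known as M33 in the mouse, has a place of its own in the gonad: mice without it have small gonads and show male-to-female sex reversal, and the nuclear receptor gene Nr5a1 is reduced in them. In the genome Cbx2 and Cbx8 are neighbouring protein-coding genes on chromosome 11 in the RefSeq table, and Cbx6 and Cbx7 lie on chromosome 15 with Apobec3 between them.

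Apart from the way they were chosen, most of these genes have a promoter rich in CpG. This is the dinucleotide at which DNA is methylated, and it marks promoters of broadly used and Polycomb-regulated genes alike. RefSeq promoter sequences (GRCm38.p6) were matched for 8 of the 9 genes; Cbx2 was not matched. In the 250 bases before the annotated start these 8 held between 12 and 37 CpG, with a median of 21.5, whereas the median over all 32851 promoter windows of the same length was 6 and the upper quartile 16. Both ends of that range and Cbx8, the member with the smallest p in the comparison below, are printed 5′ to 3′ on the gene's strand with each CpG in capitals. Suz12 held the most CpG (37, at chr11:79992856-79993105, plus strand), more than 97.8% of windows. Eed held the fewest (12, at chr7:89980977-89981226, minus strand), more than 66.5% of windows but under the upper quartile of 16. Cbx8 held 22 (chr11:119040914-119041163, minus strand).
Suz12 promoter: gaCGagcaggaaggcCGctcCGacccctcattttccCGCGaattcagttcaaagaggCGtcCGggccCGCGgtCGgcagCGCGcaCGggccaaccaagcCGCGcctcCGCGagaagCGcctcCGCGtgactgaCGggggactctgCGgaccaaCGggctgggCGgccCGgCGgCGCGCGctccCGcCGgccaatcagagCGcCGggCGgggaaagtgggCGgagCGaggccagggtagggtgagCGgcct
Eed promoter: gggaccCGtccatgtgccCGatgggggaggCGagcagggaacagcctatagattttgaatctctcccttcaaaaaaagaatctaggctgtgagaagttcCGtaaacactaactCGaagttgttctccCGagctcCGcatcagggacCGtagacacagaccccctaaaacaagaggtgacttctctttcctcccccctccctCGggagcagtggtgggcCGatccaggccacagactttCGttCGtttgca
Cbx8 promoter: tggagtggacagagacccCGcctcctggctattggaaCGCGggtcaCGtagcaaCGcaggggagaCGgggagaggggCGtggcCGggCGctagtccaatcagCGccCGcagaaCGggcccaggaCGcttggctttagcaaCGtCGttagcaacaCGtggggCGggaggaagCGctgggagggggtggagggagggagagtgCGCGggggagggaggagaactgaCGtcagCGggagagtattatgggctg
The array reads transcripts and not promoter activity or methylation, so the sequences describe the genes and are not linked to a measured difference.

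None of the 9 Polycomb genes was called as higher or lower in KO than in WT epithelium. Of the 25 probe sets, 17 passed the filter on dim probe sets (a geometric mean over all 6 arrays of at least 26.7 intensity units) and were tested. Each of the 9 genes kept at least 1 of them. In limma's test 0 of the 17 passed an adjusted p of 0.05, against 4.68% of all 27022 tested probe sets (2.75% higher and 1.93% lower in KO). At an unadjusted p under 0.05 the count was also 0 of 17, against 17.3% of all tested. Split by direction, an unadjusted p under 0.05 was reached by 9.86% (higher) and 7.45% (lower) of all tested. The smallest adjusted p among the 17 was 0.354 and the median log2 fold change (KO minus WT) was −0.05, beside 0.01 over all tested probe sets. The difference was positive in 7 of 17, against 50.9% of all tested. The log2 fold change was within 0.25 either way in 15 of 17 (88.2%, against 63.1% of all tested). In 16 of 17 (94.1%, against 82.3%) the 95% interval lay inside a 2-fold change in either direction. These shares were not matched for brightness, and most of the 17 had an SE under the median of 0.188 over all tested probe sets. The 17 probe sets, 6 of them for Suz12, come from 9 genes and are not independent. A p that misses the threshold does not show equal levels: the intervals below give the size of difference the 6 arrays still allow.

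**Figure D1:**
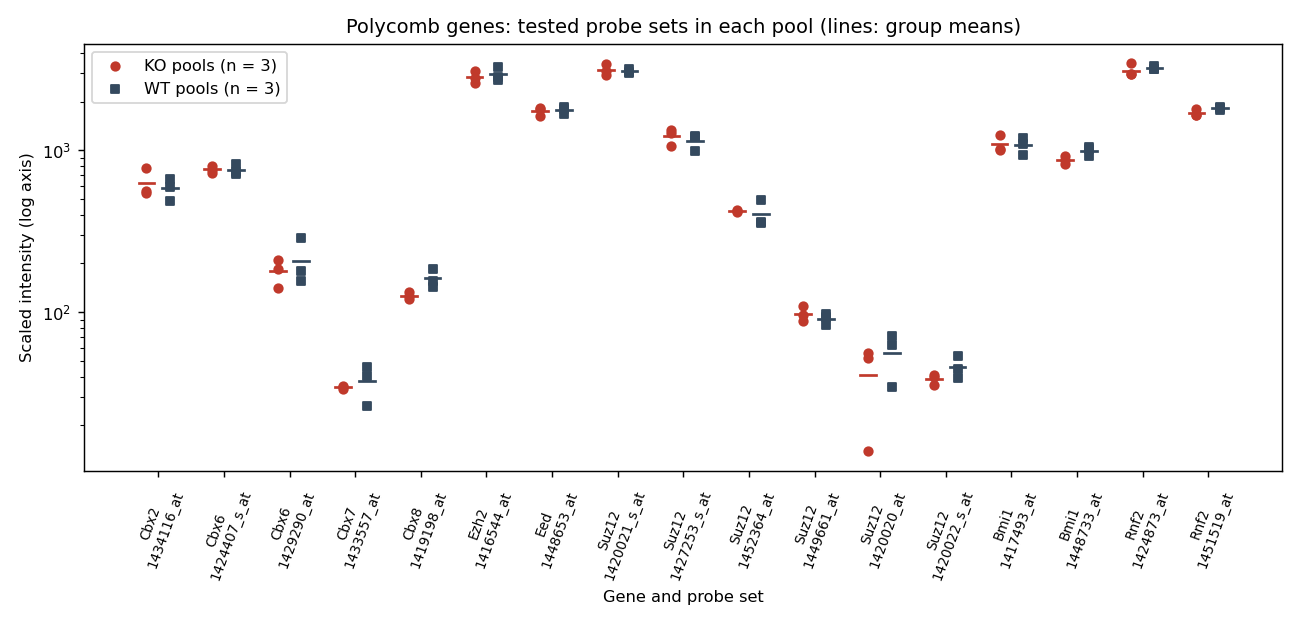
Scaled intensity (log axis) of the 17 tested Polycomb probe sets in each pool, KO pools as red circles left of WT pools as dark squares, with lines at the group means. The groups overlap in all but Cbx8 (KO 121 to 133, WT 144 to 184) and 1 of the Bmi1 probe sets (KO 823 to 920, WT 929 to 1051).

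Ezh2, the PRC2 methyltransferase, was bright in every pool. Its only probe set, 1416544_at, read 3114, 2629 and 2807 in the KO pools, against 2842, 2739 and 3290 in the WT pools. The lowest value was a KO pool and the highest a WT pool, with the other pools in between. The means were 2850 ± 245 in KO and 2957 ± 293 in WT epithelium, as mean ± SD of 3 pools here and throughout. The log2 fold change was −0.05 with an SE of 0.10 (limma, adjusted p = 0.850). The 95% interval of the ratio of KO to WT ran from 0.830 to 1.12.

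Eed, which reads the PRC2 mark, was measured by 1 bright probe set (1448653_at) at 1814, 1627 and 1819 in KO pools, against 1809, 1678 and 1845 in WT pools. The second replicate was the lowest of its group in both genotypes, and the groups overlapped over most of their range. Eed averaged 1754 ± 110 in KO and 1777 ± 87.7 in WT epithelium (log2 fold change −0.02, SE 0.10, adjusted p = 0.943), with an interval of the ratio from 0.854 to 1.14. Its other probe set was too dim to be tested, at 15.8 to 33.1 over the 6 pools.

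Suz12, the scaffold of PRC2, was read by 6 probe sets, all tested and at very different brightness. The brightest, 1420021_s_at, gave 2926, 3096 and 3443 in KO pools, against 3170, 3025 and 3074 in WT pools. The 3 WT values lay inside the range of the KO values. This probe set averaged 3155 ± 263 in KO and 3090 ± 74.1 in WT epithelium (log2 fold change 0.03, SE 0.09, adjusted p = 0.915). The next 3 by brightness gave log2 fold changes of 0.10, 0.09 and 0.10, each with overlapping groups. The other two, with group means between 38.8 and 56.1, gave −0.64 and −0.23 with SEs of 0.48 and 0.27. The first of these, 1420020_at, read 56.2, 13.8 and 52.4 in KO pools, against 34.5, 71.3 and 62.5 in WT pools. Its difference rests on KO replicate 2: without that pool the log2 fold change was 0.02. It is also the only tested Polycomb probe set whose interval extended past a 2-fold change.

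Rnf2, the ubiquitin ligase of PRC1, had 2 bright probe sets. The brighter, 1424873_at, read 2950, 2956 and 3454 in KO pools, against 3184, 3190 and 3308 in WT pools, so that the WT values lay between KO values. It averaged 3120 ± 289 in KO and 3227 ± 69.8 in WT epithelium (log2 fold change −0.05, SE 0.09, adjusted p = 0.829). The other, 1451519_at, read 1809, 1666 and 1656 in KO pools, against 1861, 1838 and 1778 in WT pools (log2 fold change −0.09, SE 0.09, adjusted p = 0.672). In it 2 KO pools lay under all WT pools and the third lay among them. A further 3 Rnf2 probe sets read at most 8.94 in every pool, and in 2 of them all 6 values lay under the intensity floor of 8.06. They were not tested.

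Bmi1, the ring finger partner of Rnf2, is best known for silencing the Cdkn2a locus in stem cells. Its brighter probe set, 1417493_at, read 1027, 1008 and 1246 in KO pools, against 1098, 941 and 1191 in WT pools. It averaged 1093 ± 132 in KO and 1077 ± 127 in WT epithelium (log2 fold change 0.02, SE 0.13, adjusted p = 0.953). The other, 1448733_at, read 867, 823 and 920 in KO pools, against 1051, 929 and 1017 in WT pools, and here every KO pool was below every WT pool. The means were 870 ± 48.7 in KO and 999 ± 63.0 in WT (log2 fold change −0.20, SE 0.11, adjusted p = 0.392), a difference that did not pass the test. The probe sets of Bmi1 therefore gave opposite signs, both small.

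Cbx2 was uneven between pools of one genotype, with a coefficient of variation of 21.0% in KO and 15.7% in WT. Its tested probe set, 1434116_at, read 547, 782 and 560 in KO pools, against 669, 597 and 487 in WT pools. KO replicate 2 was the highest of all 6, and the other KO pools lay inside the WT range. Cbx2 averaged 630 ± 132 in KO and 584 ± 91.9 in WT epithelium (log2 fold change 0.10, SE 0.17, adjusted p = 0.823), and the 95% interval of the ratio ran from 0.837 to 1.37. Without KO replicate 2 the log2 fold change was −0.07. The second Cbx2 probe set was not tested: 5 of its 6 values lay under the floor of 8.06, the sixth being 8.24 in KO replicate 1.

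Cbx8, the neighbour of Cbx2 and a further chromodomain subunit of PRC1, had the smallest p of the 17 probe sets. Its tested probe set, 1419198_at, read 133, 121 and 126 in KO pools, against 184, 157 and 144 in WT pools, so that every KO pool was below every WT pool. The means were 126 ± 5.99 in KO and 162 ± 20.8 in WT epithelium (log2 fold change −0.35, SE 0.18, unadjusted p = 0.0756, adjusted p = 0.354), with an interval of the ratio from 0.601 to 1.03. Cbx8 and the dimmer Bmi1 probe set were the only 2 of 17 in which the groups did not overlap (11.8%, against 22% of all tested probe sets). A second Cbx8 probe set, too dim to be tested, ran the other way with 10.52, 23.7 and 18.5 in KO pools, against 2.09, 10.9 and 12.3 in WT pools.

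Cbx6 and Cbx7 complete the chromodomain subunits. The brighter Cbx6 probe set, 1424407_s_at, read 728, 804 and 762 in KO pools, against 732, 830 and 719 in WT pools (log2 fold change 0.01, SE 0.12, adjusted p = 0.978). The dimmer one, 1429290_at, read 141, 184 and 210 in KO pools, against 155, 181 and 289 in WT pools, the last standing above the rest (log2 fold change −0.19, SE 0.24, adjusted p = 0.757). Without that WT replicate 3 its log2 fold change was 0.08. Cbx7, known for silencing Cdkn2a like Bmi1, was dim. Its tested probe set, 1433557_at, read 35.1, 34.4 and 33.6 in KO pools, against 40.2, 46.0 and 26.4 in WT pools (log2 fold change −0.09, SE 0.31, adjusted p = 0.922). The WT values lay on both sides of the KO values, and the interval of the ratio, 0.593 to 1.49, was wide. Its other two probe sets read at most 21.7 in every pool and were not tested. Intensities of different probe sets depend on their probes, so these values do not rank one Cbx gene above another.

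**Figure D2:**
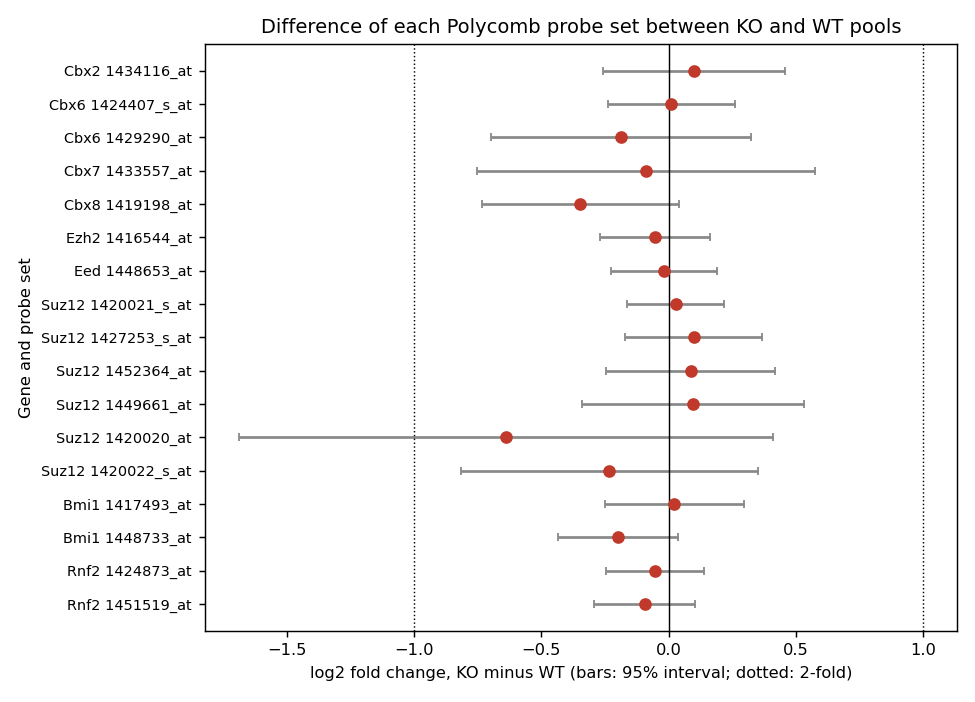
Log2 fold change (KO minus WT) of the 17 tested Polycomb probe sets as points with 95% intervals from limma, a solid line at 0 and dotted lines at a 2-fold change. All 17 intervals include 0, and only that of Suz12 1420020_at, the probe set with an SE of 0.48, reaches past a 2-fold change.

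The genes whose values over the 6 arrays were most like those of Cbx2, by Pearson correlation of log2 values with 1 probe set per gene, were Foxm1, a transcription factor of dividing cells (r = 0.99), Plcxd2 (r = 0.98), Zswim7 (r = 0.98), Fancf, a member of the Fanconi anaemia core complex (r = 0.98), and Smim8 (r = 0.98). These are the highest of 12315 genes over only 6 arrays, which share their amplification and scaling, and the values are a description. Like Cbx2, Foxm1 was highest in KO replicate 2: it read 95.8, 137 and 91.3 in KO pools, against 122, 103 and 82.5 in WT pools (log2 fold change 0.07, adjusted p = 0.915). None of the 5 passed the test between genotypes, their adjusted p ranging from 0.714 to 0.951. The 5 were picked for following Cbx2, which did not pass either, so this outcome was largely set by the choice. The smallest unadjusted p among them was 0.378.

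The rest of the Polycomb and trithorax machinery was described from 5 lists with 57 genes. Among the lists is that of the HP1 and Cdyl genes, chromodomain proteins outside Polycomb. Of the 57 genes 53 were tested, each by its brightest probe set. Only 1 of the 53 (1.89%) passed, higher in KO, against 5.41% of all genes taken the same way (2.93% higher and 2.48% lower); by gene, 18.2% of all had an unadjusted p under 0.05. The median log2 fold change over the 53 was −0.002. Bcorl1, an X-linked corepressor of variant PRC1, read 207, 172 and 149 in KO pools, against 116, 83.5 and 97.7 in WT pools, and no KO pool overlapped a WT pool. It rose to 176 ± 29.1 in KO, against 99.1 ± 16.4 in WT epithelium (log2 fold change 0.83, SE 0.20, adjusted p = 0.0355). The call ended without any one of the 3 KO pools or without WT replicate 2 or 3 (log2 fold changes of 0.70 to 0.94, adjusted p up to 0.161), and the second Bcorl1 probe set gave 0.40 (adjusted p = 0.489).

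Among the other subunits of PRC2, 0 of 9 passed (5.41% of all genes did), with 3 at an unadjusted p under 0.05 (18.2% of all genes). Aebp2, which helps PRC2 bind nucleosomes, came closest, at 2134, 2475 and 1998 in KO pools, against 1606, 1803 and 1616 in WT pools. Every KO pool was above every WT pool (log2 fold change 0.39, SE 0.11, adjusted p = 0.0548). Jarid2, which recruits PRC2, read 4455, 4871 and 4595 in KO pools, against 3739, 3844 and 4005 in WT pools, again without overlap (log2 fold change 0.26, SE 0.08, adjusted p = 0.0798). In the list of PRC1 and related genes, which includes Sfmbt1 and Sfmbt2, Bcorl1 was the 1 called of 20 tested. E2f6, a repressor of another variant PRC1 complex, was next by p and averaged 1165 ± 43.4 in KO and 1430 ± 105 in WT epithelium (log2 fold change −0.29, SE 0.10, adjusted p = 0.144).

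None of 8 tested genes for removing the Polycomb marks passed by its brightest probe set, 2 of them having an unadjusted p under 0.05, beside the same 5.41% and 18.2% of all genes. Kdm6a, the X-linked demethylase that opposes PRC2, averaged 1187 ± 274 in KO and 860 ± 183 in WT epithelium (log2 fold change 0.46, SE 0.19, adjusted p = 0.216). A second Kdm6a probe set did pass: it read 1012, 1059 and 1196 in KO pools, against 881, 609 and 719 in WT pools (log2 fold change 0.58, SE 0.14, adjusted p = 0.0333). Mysm1, a deubiquitinase of histone H2A, averaged 620 ± 14.9 in KO and 508 ± 57.4 in WT epithelium (log2 fold change 0.29, adjusted p = 0.260). In the trithorax group, whose methyltransferases counteract Polycomb silencing, 0 of 11 passed and 0 had an unadjusted p under 0.05, against 5.41% and 18.2% of all genes. Its smallest p-values belonged to Dpy30 (log2 fold change −0.18, adjusted p = 0.311) and Setd1b (0.25, adjusted p = 0.423).

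The 5 tested HP1 and Cdyl genes, chromodomain proteins outside Polycomb, had 0 calls and 1 unadjusted p under 0.05 (5.41% and 18.2% of all genes). Cbx5, which encodes HP1 alpha and binds heterochromatin, differed between its own probe sets. The brightest read 2921, 3822 and 3209 in KO pools, against 2476, 2746 and 2520 in WT pools (log2 fold change 0.35, SE 0.10, adjusted p = 0.0802). A dimmer one read 257, 162 and 202 in KO pools, against 553, 415 and 458 in WT pools (log2 fold change −1.22, SE 0.19, adjusted p = 0.00204). Both were free of overlap and opposite in direction, so no direction is given for the gene. Cdyl2 gave 0.36 (adjusted p = 0.432). Over all 121 tested probe sets of the 5 lists, 5 passed (4.13%, against 4.68% of all tested), 2 higher and 3 lower in KO. Beside Bcorl1, Kdm6a and Cbx5 they were single probe sets of Sfmbt1 (−0.81) and Kmt2c (−0.67), whose brightest probe sets gave −0.0019 and 0.12; the Sfmbt1, Kmt2c, Kdm6a and Cbx5 probe sets were singled out after their values were seen.

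**Figure D3:**
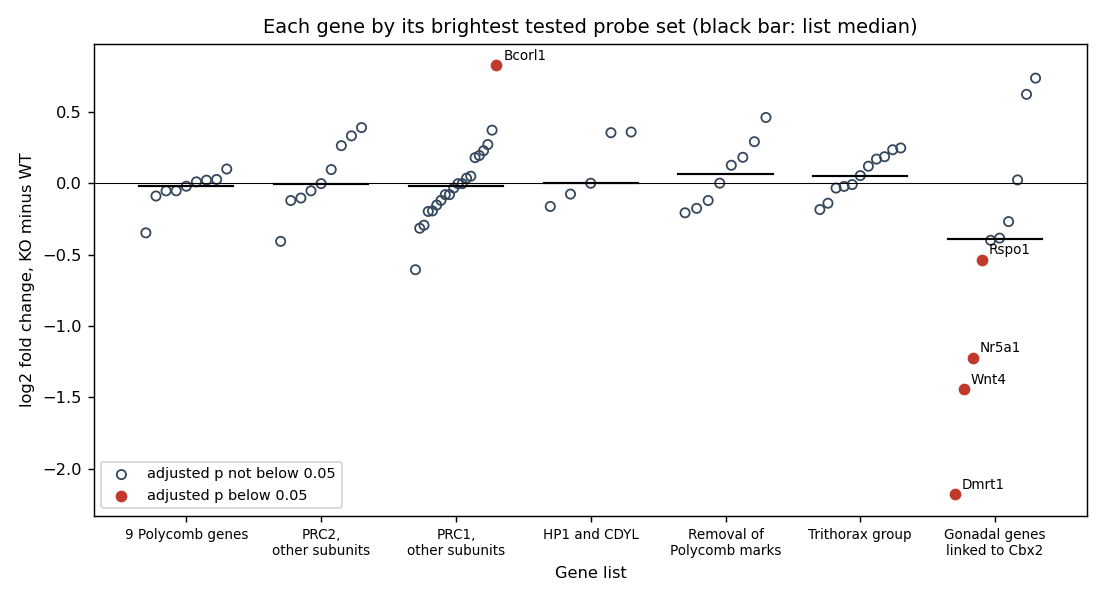
Log2 fold change (KO minus WT) of each gene by its brightest tested probe set, for the 9 Polycomb genes and 6 further lists, with red filled points for an adjusted p below 0.05 and black bars at the list medians. The Polycomb genes lie between −0.35 and 0.10, Bcorl1 at 0.83 is the 1 called gene of the chromatin lists, and the 4 called gonadal genes lie between −0.54 and −2.18, the lowest being Dmrt1, which was dim in KO pools.

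Among gonadal genes that have been linked to Cbx2 or to the pathways it acts on, Nr5a1, Wnt4 and Rspo1 were lower in KO epithelium. Of 10 tested, 4 were called, all lower; over all genes 2.93% were called higher and 2.48% lower. The other 6 did not pass. One call, that of Dmrt1, passed the filter only through its WT values. The list was chosen with earlier results of these samples known and its count is no independent evidence. Nr5a1, the nuclear receptor on which gonad formation depends, read 809, 734 and 606 in KO pools, against 1432, 2079 and 1531 in WT pools, a log2 fold change of −1.22 (SE 0.15) with an adjusted p of 0.000492. Wnt4, a signal of ovary development, read 646, 607 and 876 in KO pools, against 1917, 2298 and 1568 in WT pools (−1.44, SE 0.16, adjusted p = 0.000218). Dmrt1, a regulator of testis identity, was under the filter limit of 26.7 in the KO pools, at 26.1, 24.2 and 17.9, against 91.2, 171 and 67.0 in WT pools, so a difference was built into its being tested. Rspo1, which strengthens Wnt signals, averaged 437 ± 10.3 in KO and 638 ± 95.8 in WT epithelium (−0.54, SE 0.14, adjusted p = 0.0447), a call lost without any one of 5 pools, all but WT replicate 3. Other members ran the other way without passing, and are named after their values were seen: Gata4, whose protein served to locate the primordium, averaged 422 ± 10.9 in KO and 278 ± 61.2 in WT epithelium (0.62, adjusted p = 0.0501), and Sox9, a driver of testis development, 167 ± 29.0 in KO and 101.2 ± 23.1 in WT (0.74, adjusted p = 0.0868). In neither did the groups overlap. Without the filter on dim probe sets all 4 calls ended (adjusted p = 0.111 for Nr5a1, 0.0987 for Wnt4, 0.143 for Dmrt1 and 0.189 for Rspo1). Whether the difference of Cbx2 (0.10) itself differs from that of any of these genes was not tested.

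**Figure D4:**
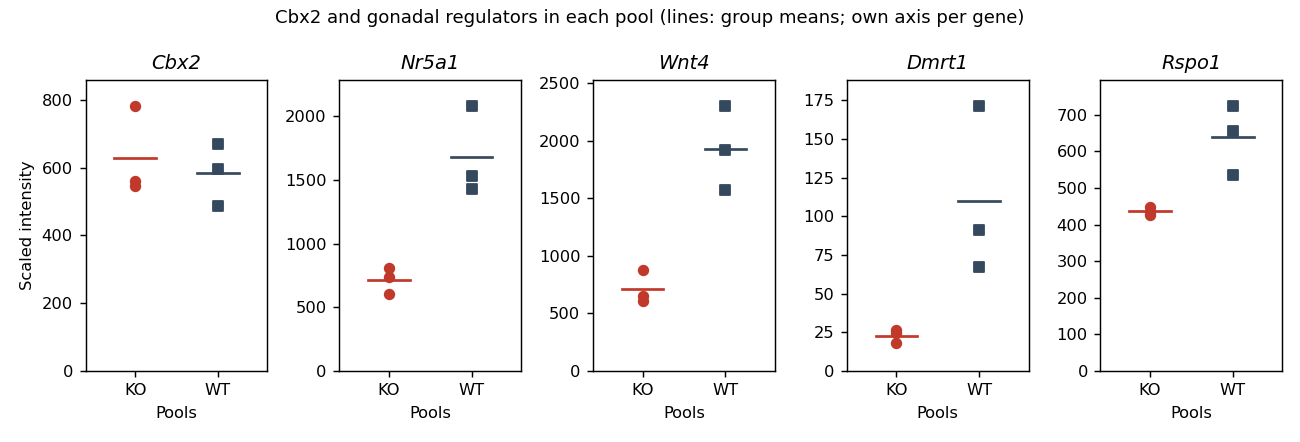
Scaled intensity of Cbx2 and of the 4 called gonadal genes in each pool, KO (red circles) left of WT (dark squares), lines at the group means, with an axis from 0 of its own for each gene. Cbx2 overlaps between genotypes (KO 547 to 782, WT 487 to 669), and in the other panels every KO pool is below every WT pool.

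Cell cycle inhibitors that Polycomb complexes silence in many cell types were not called in either direction. Cdkn2a, the classic target of Bmi1 and Cbx7, was not tested: it read 4.56, 10.8 and 6.48 in KO pools, against 6.03, 4.51 and 7.70 in WT pools, all but 1 of these values under the floor of 8.06. Cdkn2b was not tested either (at most 18.7 in any pool). Of the 3 inhibitors tested 0 passed, with 0 at an unadjusted p under 0.05 (5.41% and 18.2% of all genes): Cdkn1a gave −0.44 (adjusted p = 0.362) and Cdkn1c 0.06 (adjusted p = 0.852). Proliferation markers, given because Ezh2 and Eed are known to rise in dividing cells, included 12 tested genes with 0 calls and 0 unadjusted p under 0.05 beside those same shares, and a median log2 fold change of −0.06. By smallest p these were Tyms, a thymidylate synthase (184 ± 31.6 in KO and 144 ± 14.3 in WT, log2 fold change 0.34, adjusted p = 0.381), and Bub1, a mitotic checkpoint kinase (1547 ± 63.2 in KO and 1838 ± 352 in WT, −0.23, adjusted p = 0.411). Their summed intensity ranged from 54540 to 55180 in KO pools, against 56180 to 58080 in WT pools, and the part of this in the values of the Polycomb genes was not tested.

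Other differences between the pools stand beside these values. Xist, the RNA of the inactive X chromosome, read between 9404 and 9977 in KO pools and between 13.4 and 70.5 in WT pools, and 3 of 3 tested Y-linked genes were lower in KO, so genotype and the sex makeup of the pools cannot be told apart. That bears on the X-linked Bcorl1 and Kdm6a, while none of the 9 Polycomb genes lies on chromosome X or Y. Epithelial markers of the primordium were present in all pools (all 11 genes tested, 2 higher and 2 lower in KO, Lhx9 at 5777 or more), as were embryonic globins (Hbb-bh1 at 13050 or more). Summed mesenchyme markers (11 genes) ranged from 19090 to 19780 in KO pools, against 13230 to 14830 in WT pools, with 5 of 9 tested higher and 0 lower, against 2.93% higher and 2.48% lower over all genes, the share to read beside each count here. Summed endothelial markers (9 genes) ranged from 1374 to 1661 in KO pools, against 844 to 1071 in WT pools, with 4 of 7 tested higher, while Pecam1 and Tie1 were too dim to be tested. Of germ cell, nephric duct and neural markers, 2 of 6, 2 of 4 and 1 of 4 tested were lower and 0, 0 and 1 higher in KO, and 0 of 5 blood markers passed. Of these calls Emcn (endothelium), Lhx1 (duct) and Dct (neural) passed the filter only through the genotype where they were high. Leaving out some single pool ended 2 of the 5 mesenchyme calls, all 4 endothelial, both duct, both germ cell and 1 of the 2 neural calls. KO replicate 2 stood out in some neural markers, named after their values were seen. Tubb3, too dim to be tested, read 162 there and at most 15.4 in every other pool. Elavl4 read 114 there, against at most 64 elsewhere, while Sox10 and Dct were not highest in that pool. The part of any of these marker differences in the values above was not tested. In such bulk samples fewer cells of a type and less RNA per cell cannot be told apart. The only Emx2 probe set read 1693, 1493 and 1761 in KO pools, against 1313, 2139 and 1742 in WT pools (log2 fold change −0.05, adjusted p = 0.916). The sources used here do not say how the mutation changes Emx2 or its transcript, so this probe set checks no label.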

How the data were processed

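RNA of 6 pools was measured on 1-channel mouse arrays. The values used are the linear intensities the authors deposited, 1 per probe set and array. The submitters' processing notes name GCOS 1.2 and the sources used here give neither algorithm nor scaling. Deposited array medians ranged from 40.6 to 63.6, so arrays were multiplied to share a 2% trimmed mean (312). The floor was the 20th percentile (8.06), applied before log2. Testing left out 64 control probe sets and the dimmest 40% (geometric mean of the floored values under 26.7), keeping 27022. The difference KO minus WT was fitted with limma 3.58.1 (R 4.3.3; eBayes with an intensity trend, two-sided, Benjamini-Hochberg over all tested probe sets, threshold 0.05); intervals are 95%. Means and SDs are of scaled intensities. Arrays correlated at r = 0.9765 to 0.983 within and 0.964 to 0.972 across groups, over probe sets, which are not independent; the median SE of a log2 fold change was 0.188, and the number of arrays limits the precision. Amplification in 2 rounds favours 3′ sequence (3′ to 5′ ratios of Actb were 14.6 to 20.2 in KO and 14.9 to 19.4 in WT), which can dim probe sets placed upstream.

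Probe sets were named from the platform annotation (34958 with 1 symbol, 932 with several, 9211 with none; none was named from several). Rybp had no probe set with that single symbol and was not analysed here. Named were every member probe set, Emx2 and the 5 genes most like Cbx2. Of the chromatin, gonadal, cell cycle inhibitor and proliferation lists the called members were named, filled up to 2 by smallest p. The lists of fetal sex and of other cell type markers are given mostly by counts and sums, and not all their called genes are named. Others are named as markers, or as found after their values were seen. The members and lists were chosen with earlier results of these data known. The procedure was tested on simulated data. Alternatives covered scaling, floor, filter, replicate block, array weights, prior, threshold, cross-hybridising probe sets, sex-linked genes and each pool left out. Same-numbered pools did not deviate together (r = −0.07, 0.04 and −0.05 for numbers 1 to 3).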

Additional observations from a re-analysis of the deposited data

How the results depend on the processing

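With 3 pools a group, the arrays limit what can be seen of the dim Cbx7 and Suz12 probe sets. Polycomb probe sets called numbered 0 under all 19 alternatives (13 to 17 tested), the smallest adjusted p being 0.24. Same-numbered pools did not deviate together. With the replicate number as a block the count was 0 as well, 1160 probe sets were called over the whole array, against 1264 without it, Kdm6a (adjusted p = 0.0469) and Aebp2 (0.0498) passed, and Rspo1 (0.059), Egfl7 (0.0645) and Dnd1 (0.0707) did not, leaving 3 endothelial and 1 germ cell call. Without a filter, of the genes called in any list only Xist, Uty, Twist1 and Pdgfrb had an adjusted p under 0.05. The whole-array count was 151 without a filter, 541 without an intensity trend and 1939 at an adjusted p of 0.1, and ranged from 718 to 1687 with 1 pool left out. Of the 53 tested genes of the Polycomb, trithorax and HP1 lists, against 1 called, 2 were called with quantile normalization (Aebp2 and Jarid2, not Bcorl1). With the floor at the 40th percentile, with the lowest 60% left out and without cross-hybridising probe sets the count was 2 (Aebp2 and Bcorl1). It was 3 with the block and 4 at an adjusted p of 0.1. It was 0 with values as deposited, without a filter, without an intensity trend and without X- and Y-linked genes, which removes Bcorl1 itself, and 0 to 1 with 1 pool left out.

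Differences that had not passed changed sign in places, and the cause was not tested. On values as deposited, where the median log2 fold change of all probe sets was 0.10, they were 0.0041 for Cbx7, 0.0405 for Ezh2, 0.0726 for Eed, 0.0403 for Rnf2 (1424873_at) and 0.047 for Emx2. With a common median they were −0.0182 for Cbx6 (1424407_s_at), −0.0015 for Suz12 (1420021_s_at) and −0.0064 for Bmi1 (1417493_at). With quantile normalization they were −0.006 for Zswim7 and −0.0026 for Fancf. With 1 pool left out the log2 fold changes ranged over −0.0659 to 0.2047 for Cbx2, −0.0281 to 0.0752 for Cbx6 (1424407_s_at), −0.3744 to 0.0752 for Cbx6 (1429290_at), −0.3245 to 0.0779 for Cbx7, −0.1179 to 0.0272 for Ezh2, −0.0609 to 0.0329 for Eed, −0.0374 to 0.0798 for Suz12 (1420021_s_at), −0.9942 to 0.0185 for Suz12 (1420020_at), −0.0752 to 0.0988 for Bmi1 (1417493_at), −0.231 to 0.1209 for Emx2, −0.0974 to 0.165 for Cdkn1c, −0.112 to 0.2077 for Foxm1, −0.0536 to 0.0902 for Zswim7, −0.0275 to 0.0725 for Fancf and −0.0712 to 0.3013 for Smim8.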
